A study of Mus musculus with 4 samples.

Results

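The genes described here are the WNT ligands, their receptors, the inhibitors of the pathway and its effectors, 55 genes taken from a list of names drawn up with earlier results of these data known, of 35689 genes in the deposited table. All 55 were found: 18 ligands, 15 receptors, 10 secreted or surface inhibitors, 6 intracellular inhibitors and 6 effectors. The R-spondins and their receptors are not among them. RNA came from E11.5 mouse forelimb buds, in 2 knockout and 2 control libraries, each from the left and right bud of a single embryo. Knockout embryos had the genotype PrxCre/+;Smarcc1c/c and controls Prx+/+;Smarcc1c/c, so both groups carry the conditional Smarcc1 allele on both chromosomes and differ by the Cre transgene. No library carries PrxCre with intact Smarcc1, so an effect of the transgene itself and the loss of Smarcc1 cannot be told apart. PrxCre is known to act in limb bud mesenchyme, so the ectoderm, blood and vessels of these buds are taken to keep their Smarcc1. In each genotype 1 embryo had 40 somites and 1 had 39, and pairs of values are given in that order throughout. The title of the series concerns repression by GLI factors, and neither the title nor the labels state a question about WNT signalling.

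WNT proteins are secreted lipid-modified ligands that bind Frizzled receptors. With the co-receptors LRP5 and LRP6 they keep beta-catenin from being degraded, and beta-catenin then joins TCF and LEF factors on DNA to switch on target genes. With ROR or RYK receptors, ligands such as WNT5A steer cell polarity and outgrowth without beta-catenin. In the limb bud, WNTs of the ectoderm maintain the apical ridge, pattern the dorsal side and keep the mesenchyme beneath proliferating and free of cartilage, while WNT5A drives elongation.

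Values are transcript abundances (TPM) scaled for transcript length and library total, so levels can be compared between genes. TPM keeps no depth, the read number behind each value is unknown, and precision rests on 2 embryos per genotype. With 2 libraries against 2, exact two-sided permutation cannot give a p under 0.05, so tests come from limma over all genes. Smarcc1 stood at 112 and 119.6 TPM in the controls and 46.2 and 38.4 TPM in the knockouts. All 8 limb mesenchyme markers were above 30 TPM in every library, and their summed level was 925 to 1141 TPM in the controls and 830.1 to 894 TPM in the knockouts. Summed blood markers stood at 9783 to 11147 against 11835 to 12432 TPM, muscle precursor markers at 19.7 to 25.7 against 31.8 to 36.0 TPM and endothelial markers at 39.9 to 73.5 against 50.8 to 74.2 TPM. Macrophage markers stood at 16.5 to 22.9 against 13.6 to 15.1 TPM. Among 4 hindlimb markers, Tbx4 (4.52 and 6.07 in controls against 15.5 and 19.3 TPM in knockouts) and Pitx1 (0.110 and 0.165 against 14.9 and 10.4 TPM) rose. Hoxc10 (4.83 and 2.97 against 2.77 and 2.45 TPM) did not pass, Hoxc11 (1.27 and 0.909 against 0.858 and 0.577 TPM) was not tested, and both lay lower in both knockouts. The part of these cell types in the results below was not tested. In whole buds, fewer cells of a type and less RNA per cell cannot be told apart.

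Of the 45 members tested, the nuclear factors Tcf7 and Lef1 had the largest log2 fold changes, both toward lower levels in the knockout, while the ligand Wnt11 and the secreted inhibitors Wif1 and Frzb lay higher. Of the 55 genes, 45 reached 1 TPM in at least 2 libraries, which admitted them to the test, and all 45 reached it in a library of each genotype. Without somite stage in the model, 0 rose, 1 fell (Tcf7) and 44 did not pass limma at 0.05 after Benjamini-Hochberg (BH) adjustment over 12809 genes, where 0.812% of all tested genes rose and 0.492% fell. With somite stage in the model, which leaves 1 residual degree of freedom, 3 rose (Wnt11, Wif1 and Frzb) and 5 fell (Tcf7, Lef1, Fzd10, Kremen1 and Wnt6), against 2.08% of all tested genes rising and 2.08% falling. As shares of the 45, these are 6.67% and 11.1%. At an unadjusted limma p under 0.05 there were 5 higher and 13 lower, or 11.1% and 28.9%, against 6.78% and 6.89% of all tested genes. Both knockout libraries lay above both controls for 7 members and below both for 16, or 15.6% and 35.6%, against 22.7% and 21.2% of all tested genes, and the other 22 overlapped. The share of separated members that lay higher is thus below its background and the share that lay lower is above it. The median log2 fold change of the 45 was -0.16, beside 0.01 for all tested genes. Fold changes are knockout minus control on the scale of log2(TPM + 1), where a given fold is smaller for genes near 1 TPM. The error after each ± is the SE of the fit without stage, and SEs of the fit with stage are named as such.

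**Figure D1:**
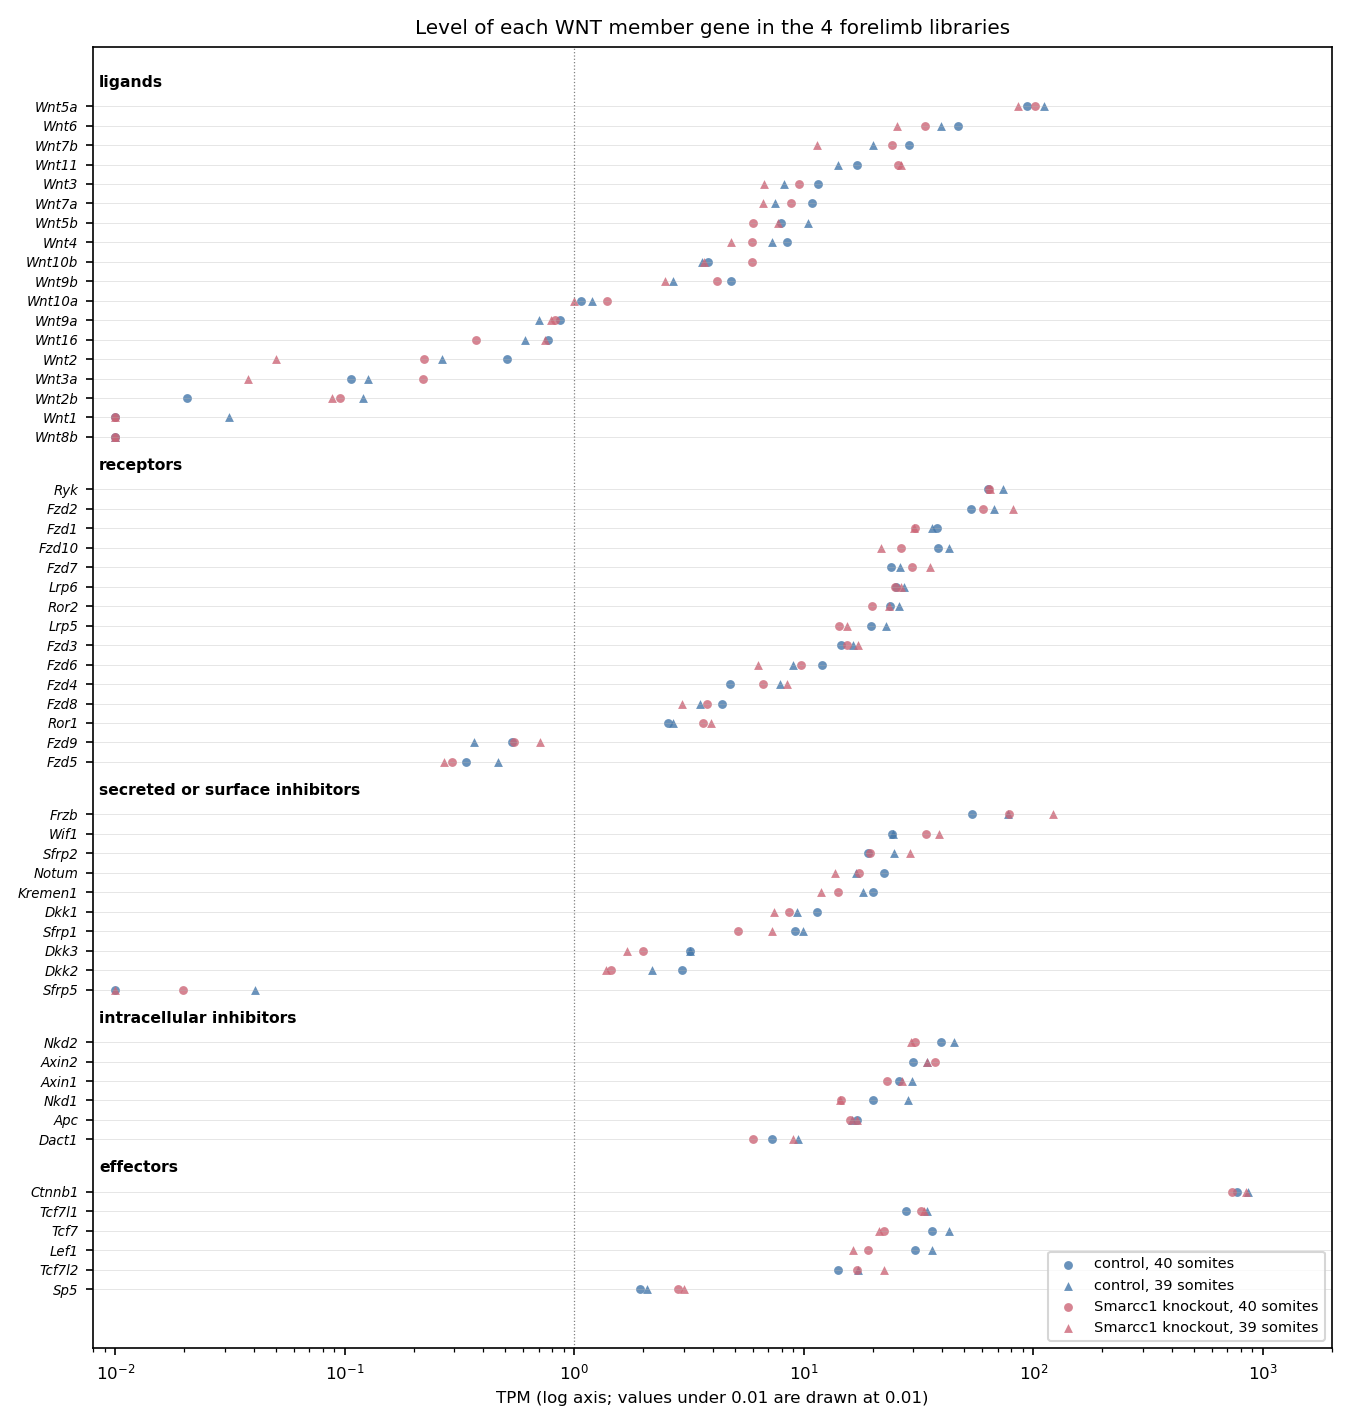
TPM of the 55 WNT genes in each of the 4 libraries, on a log axis, grouped by role and ordered by mean level within a role; circles are 40-somite and triangles 39-somite embryos, blue control and red knockout, and the dotted line marks 1 TPM. Ctnnb1 has the highest level of all, Wnt5a leads the ligands, and 10 genes lie left of the dotted line in every library.

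**Figure D2:**
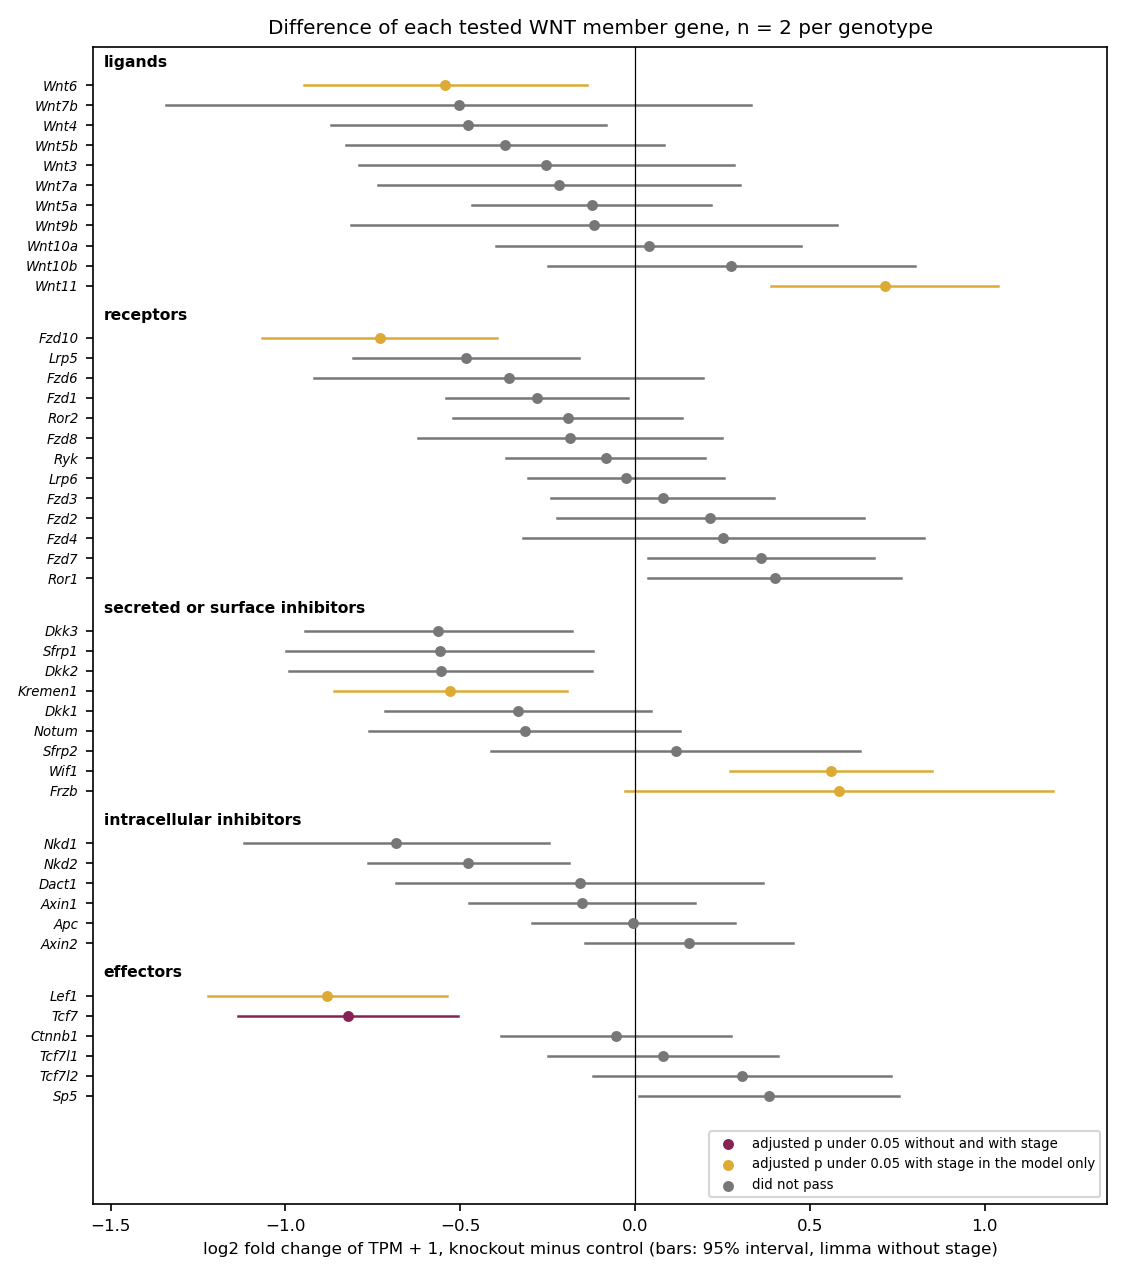
Log2 fold change of TPM + 1, knockout minus control, for the 45 tested WNT genes, with 95% intervals from limma without stage (n = 2 per genotype). Lef1 and Tcf7 lie farthest to the left and Wnt11 farthest to the right, and 30 of the 45 points lie below 0.

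Among the effectors, Tcf7 and Lef1, the TCF and LEF family members best known as activating partners of beta-catenin, were lower in both knockout embryos. Tcf7 (ENSMUSG00000000782; mm10 chromosome 11, 52252371 to 52283014) stood at 36.0 and 42.9 TPM in the controls and 22.4 and 21.2 TPM in the knockouts. Lef1 (ENSMUSG00000027985; mm10 chromosome 3, 131110471 to 131224356) stood at 30.5 and 36.1 TPM in the controls and 19.0 and 16.3 TPM in the knockouts. For both genes the groups are well apart, and both knockout libraries hold about the same level. Tcf7 fell by 0.82 on the log2 scale, with an SE of 0.13, a 95% interval from -1.14 to -0.51 and a BH-adjusted p of 0.0499 in limma. Lef1 had a log2 fold change of -0.88 ± 0.14 (95% interval -1.22 to -0.54; limma, BH-adjusted p = 0.0519), which missed the threshold. With somite stage in the model both passed (SE 0.10 and 0.13 with stage; limma, BH-adjusted p = 0.0299 and 0.0385). Over 14 alternatives the adjusted p ran from 0.00350 to 0.187 for Tcf7 and 0.000609 to 0.200 for Lef1. The call for Tcf7 ended without the 40-somite control (limma, BH-adjusted p = 0.0753), without the 39-somite control (0.139), at pseudocounts of 0.1 and 5 (0.0510 and 0.0527), without the variance trend (0.0639) and with no filter on low values (0.187). Beside these factors, 7 of 8 limb mesenchyme markers lay below 0, with a median log2 fold change of -0.30, and in limma 0 passed without stage, 4 had an unadjusted p under 0.05 (1 higher, 3 lower) and 2 fell with stage. The last 2 were Prrx1 and Hoxd11, with log2 fold changes of -0.53 and -0.61. Twist1 was the 1 marker above 0, with a log2 fold change of 0.36 and both knockouts above both controls. The part of the mesenchyme in the values of Tcf7 and Lef1 was not tested.

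The other 2 family members did not pass. Tcf7l1, which in many tissues acts as a repressor of WNT targets, stood at 27.9 and 34.5 TPM in the controls and 32.3 and 33.4 TPM in the knockouts. Tcf7l2 stood at 14.0 and 17.2 TPM against 17.0 and 22.3 TPM, higher than the control of the same stage at both stages, although the groups overlap. Their log2 fold changes were 0.08 ± 0.14 and 0.31 ± 0.18 (limma, BH-adjusted p = 0.869 and 0.533). Tcf7 and Lef1 together held 61.3% and 60.4% of the summed TPM of the 4 genes in the controls and 45.6% and 40.3% in the knockouts. Their own sum was 66.5 and 79.0 TPM in the controls and 41.4 and 37.5 TPM in the knockouts, while that of Tcf7l1 and Tcf7l2 was 41.9 and 51.7 TPM in the controls and 49.3 and 55.6 TPM in the knockouts. These shares are descriptions and were not tested. Ctnnb1, which encodes beta-catenin, was the most abundant of the 55 genes at 773 and 859 TPM in the controls and 733 and 839.9 TPM in the knockouts, with a log2 fold change of -0.05 and a 95% interval of -0.38 to 0.27 that changed sign under quantile normalization (0.0013). Sp5, a transcription factor gene that WNT signalling switches on in many tissues, stood at 1.92 and 2.08 TPM in the controls and 2.84 and 2.99 TPM in the knockouts. Its groups do not overlap, and it did not pass (0.38 ± 0.15; limma, BH-adjusted p = 0.350).

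**Figure D3:**
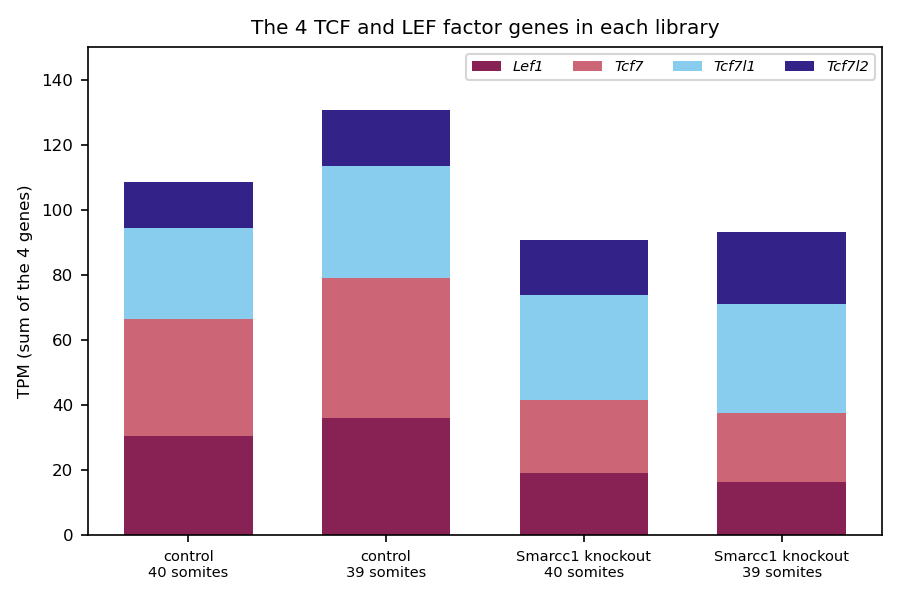
TPM of Lef1, Tcf7, Tcf7l1 and Tcf7l2 stacked for each library, controls on the left and knockouts on the right. The lower, red part of the bars (Lef1 and Tcf7) is shorter in both knockout libraries, and the blue part (Tcf7l1 and Tcf7l2) is of similar height in all 4.

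The 11 tested ligands had a median log2 fold change of -0.22. Among them, Wnt11 stood apart as the only one with both knockout embryos above both controls. Wnt11 (ENSMUSG00000015957; mm10 chromosome 7, 98835112 to 98855195), a ligand mostly of the beta-catenin-independent branch that is made in limb mesenchyme, stood at 17.1 and 14.1 TPM in the controls and 25.8 and 26.5 TPM in the knockouts. The knockout libraries lie close together. Its log2 fold change was 0.71 ± 0.13 (2 libraries per genotype; limma, BH-adjusted p = 0.0809), and it rose with somite stage in the model (SE 0.10 with stage; 0.0385; 0.0350 to 0.224 over 14 alternatives). Wnt5a, the main ligand of limb outgrowth, was the most abundant and supplied between 39.5% and 48.9% of all ligand TPM. It stood at 93.7 and 111 TPM in the controls and 102 and 85.8 TPM in the knockouts, groups that overlap, with a log2 fold change of -0.12 and a 95% interval of -0.47 to 0.22. Its relative Wnt5b stood at 7.97 and 10.4 TPM against 5.99 and 7.75 TPM without overlap and did not pass (-0.37 ± 0.19; limma, BH-adjusted p = 0.466).

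Of the ligands known from the limb ectoderm, Wnt6 alone passed, with stage in the model. Wnt6 (ENSMUSG00000033227; mm10 chromosome 1, 74771892 to 74785322), the second most abundant ligand, stood at 47.0 and 39.6 TPM in the controls and 33.7 and 25.5 TPM in the knockouts, and Wnt4 at 8.47 and 7.25 TPM against 5.95 and 4.81 TPM. For both, the groups do not overlap. Wnt6 fell with somite stage in the model (log2 fold change -0.54 ± 0.17, SE 0.08 with stage; limma, BH-adjusted p = 0.0385 with stage, 0.232 without it, 0.0188 to 0.713 over 14 alternatives), and Wnt4 did not pass either way (0.0836 and 0.276). Wnt7b stood at 28.8 and 20.00 TPM against 24.1 and 11.4 TPM, and the value of its 39-somite knockout is the one that stands low. Without the 40-somite knockout its log2 fold change was -1.02 (limma, BH-adjusted p = 0.000626), and without the 39-somite knockout it was 0.01. Wnt3, which maintains the ridge, stood at 11.6 and 8.21 TPM against 9.54 and 6.72 TPM. Wnt7a, the dorsal ectoderm signal, stood at 10.8 and 7.48 TPM against 8.74 and 6.61 TPM. Both lay lower at each stage but overlap between groups, since levels at 40 somites were higher than at 39 in both genotypes (limma, BH-adjusted p = 0.701 and 0.746). Wnt9b at 4.79 and 2.69 TPM against 4.19 and 2.49 TPM, Wnt10b at 3.84 and 3.61 TPM against 5.97 and 3.69 TPM and Wnt10a, at 1.07 and 1.19 TPM in the controls and a mean of 1.16 TPM over the 4 libraries, also overlapped.

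Surface ectoderm markers lay lower beside these ligands. All 14 of 14 were tested, 14 lay below 0 with a median log2 fold change of -0.42, and none was at 0 TPM. The fall was uneven, with both knockouts below both controls for 5 markers and overlapping groups for 9. Log2 fold changes ran from -0.82 for Grhl3 to -0.09 for Krt15, with Krt5 at -0.11 and Krt14 at -0.09. In limma 0 passed without stage, 5 had an unadjusted p under 0.05 and 4 passed with stage in the model. Their summed level was 685 and 459.8 TPM in the controls and 535 and 343 TPM in the knockouts. Like Wnt6, Wnt4, Wnt7b, Wnt3, Wnt7a, Wnt9b and Wnt10b, it was higher at 40 than at 39 somites in both genotypes. Apical ridge markers summed to 201 and 166 TPM against 115 and 88.6 TPM, a sum in which Fgf8 is the largest term. All 8 were tested and 7 lay below 0, with a median log2 fold change of -0.30. Fgf8 and Sp6 fell in limma with and without stage. The groups overlapped for 4 (Fgf4, Fgf9, Sp8 and Dlx6), and Dlx6 lay above 0 (log2 fold change 0.25). Within stages the mean marker difference for the surface ectoderm was -0.41 at 40 and -0.45 at 39 somites, where Wnt6 differed by -0.47 and -0.62. Wnt4 differed by -0.45 and -0.51, Wnt7b by -0.24 and -0.77, and Wnt3 by -0.25 and -0.26. Wnt7a differed by -0.28 and -0.16 and Wnt9b by -0.16 and -0.08. Wnt10b lay higher in the knockout, by 0.53 and 0.02, and Wnt10a differed by 0.21 and -0.13. The part of the ectoderm in the ligand values was not tested.

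The remaining 7 ligands, Wnt1, Wnt2, Wnt2b, Wnt3a, Wnt8b, Wnt9a and Wnt16, stayed under 1 TPM in every library and were not tested. Wnt8b was listed at 0 in all 4 libraries and Wnt1 in 3 of 4. Wnt9a, a joint-forming ligand at later stages, was the highest of them at 0.863 and 0.702 TPM in the controls and 0.827 and 0.789 TPM in the knockouts. In all, 4 pairs of ligand genes lie close together on mm10, with 6193 bases between Wnt6 and Wnt10a, 16175 between Wnt3a and Wnt9a, 24328 between Wnt9b and Wnt3 and 11706 between Wnt10b and Wnt1. Mean TPM within the pairs was 36.4 and 1.16 for Wnt6 and Wnt10a and 0.12 and 0.80 for Wnt3a and Wnt9a. It was 3.54 and 9.01 for Wnt9b and Wnt3 and 4.27 and 0.0078 for Wnt10b and Wnt1. Summed ligand TPM was 237 and 228 TPM in the controls and 229 and 184 TPM in the knockouts, where the 39-somite knockout alone lies well below the rest.

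The sequence before the start of these genes was GC-rich. RefSeq promoters on GRCm38 (mm10) were used for 40 of the 55 genes. Apc and Fzd8 were left out by a rule on their location, whether or not they had a promoter. That rule was not applied to the set of all genes. In the 40, the 250 bases before the most upstream start had a median GC content of 70.0% and 23.5 CpG dinucleotides. Over 27025 genes these medians were 52.0% and 6. A TCF and LEF motif, written CTTTGNN with A or T at each N and searched on both strands, was in 4 of 40 member windows (10.0%: Dkk1, Fzd7, Sp5 and Wnt11) and in 14.9% of all windows. A match is a run of letters and not evidence of binding. Of the members past the adjusted threshold with or without stage, 7 had a window. Among these, 3 windows overlapped an exon of the same gene and 1 held a reading frame of 50 or more codons open to its end. These were not printed, and the remaining 3 are printed 5′ to 3′ on the gene's strand. Capitals mark the TCF and LEF motif, here on the strand opposite Wnt11 and absent from the other windows. The Lef1 window is chr3:131110047-131110296, plus strand, that of Wnt11 chr7:98834862-98835111, plus strand and that of Wnt6 chr1:74771642-74771891, plus strand.
Lef1: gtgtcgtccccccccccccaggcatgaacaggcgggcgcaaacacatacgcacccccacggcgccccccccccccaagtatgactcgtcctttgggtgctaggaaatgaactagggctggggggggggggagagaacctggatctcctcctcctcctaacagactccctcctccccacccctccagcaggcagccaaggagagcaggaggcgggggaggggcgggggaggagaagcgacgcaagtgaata
Wnt11: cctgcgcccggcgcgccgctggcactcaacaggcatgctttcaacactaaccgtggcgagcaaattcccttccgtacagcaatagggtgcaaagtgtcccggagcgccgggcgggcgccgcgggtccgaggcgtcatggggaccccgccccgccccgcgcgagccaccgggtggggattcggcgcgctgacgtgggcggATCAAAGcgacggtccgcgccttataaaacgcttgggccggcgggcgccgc
Wnt6: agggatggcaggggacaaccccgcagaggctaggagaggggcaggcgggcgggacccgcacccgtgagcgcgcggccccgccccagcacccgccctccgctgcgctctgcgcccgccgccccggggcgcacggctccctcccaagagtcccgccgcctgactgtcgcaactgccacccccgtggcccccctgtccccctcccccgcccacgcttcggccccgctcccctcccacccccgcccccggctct
Their GC content was 66.4%, 70.8% and 79.6%, with 11, 37 and 28 CpG dinucleotides, so the windows of both ligands are denser in CpG than that of Lef1. The motif of Wnt11 begins 51 bases before its start.

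Of the 13 receptors tested, Fzd10 fell with stage in the model and the other 12 did not pass, with a median log2 fold change of -0.08 over the 13. Fzd10 (ENSMUSG00000081683; mm10 chromosome 5, 128600844 to 128604093), a Frizzled that can signal through beta-catenin, stood at 38.3 and 42.7 TPM in the controls and 26.5 and 21.7 TPM in the knockouts, and the groups do not overlap. Its log2 fold change was -0.73 ± 0.14 (SE 0.12 with stage, 2 libraries per genotype; limma, BH-adjusted p = 0.0490 with stage, 0.0820 without, 0.00295 to 0.227 over 14 alternatives). Its share of all Frizzled TPM was 20.1% and 20.3% in the controls and 14.4% and 10.6% in the knockouts. Fzd7 lay on the other side without passing, at 23.9 and 26.1 TPM in the controls and 29.6 and 35.3 TPM in the knockouts (difference of 0.36 ± 0.13 on the log2 scale; limma, BH-adjusted p = 0.310), with shares of 12.5% and 12.5% against 16.1% and 17.3%. In the controls Fzd10 thus stood above Fzd7 in both embryos, and in the knockouts Fzd7 stood above Fzd10 in both. Summed Frizzled TPM was 190.4 and 209.9 TPM in the controls and 184 and 204 TPM in the knockouts, which overlap.

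Fzd2 was the most abundant Frizzled, at 53.7 and 67.5 TPM in the controls and 60.5 and 81.1 TPM in the knockouts. Fzd1 stood at 38.0 and 36.1 TPM against 30.5 and 30.1 TPM, without overlap and without passing (limma, BH-adjusted p = 0.326). Below these came Fzd3, Fzd6, Fzd4 and Fzd8, with mean TPM of 15.9, 9.22, 6.93 and 3.67, none of which passed, and Fzd5 and Fzd9 stayed under 1 TPM. Of the co-receptor genes, Lrp5 stood at 19.5 and 22.7 TPM in the controls and 14.2 and 15.4 TPM in the knockouts, while Lrp6 stood at 25.2 and 27.2 TPM and 24.9 and 26.6 TPM. Lrp5 came close to passing with stage in the model (log2 fold change -0.48 ± 0.13; limma, BH-adjusted p = 0.0550 with stage and 0.191 without), and the 95% interval of Lrp6 ran from -0.30 to 0.25. The difference between the responses of Lrp5 and Lrp6 was not tested.

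The receptors of the beta-catenin-independent branch did not pass. Ryk, the most abundant receptor gene by mean TPM, stood at 63.2 and 73.4 TPM in the controls and 63.8 and 64.6 TPM in the knockouts. Ror2, the main WNT5A receptor of the limb, stood at 23.6 and 25.9 TPM against 19.7 and 23.5 TPM. Its groups almost meet, with both knockouts below both controls. Ror1 stood far lower, at 2.55 and 2.68 TPM against 3.62 and 3.93 TPM, and is the one of the 3 with both knockouts above both controls. Their log2 fold changes were -0.08 ± 0.12, -0.19 ± 0.13 and 0.40 ± 0.15 (limma, BH-adjusted p = 0.831, 0.615 and 0.315).

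Of the 9 secreted and surface inhibitors tested, 2 rose and 1 fell with stage in the model, and none passed without it, where 1 lay higher and 4 lower at an unadjusted limma p under 0.05. With stage these are 22.2% and 11.1%, against 2.08% each of all tested genes. The unadjusted shares are 11.1% and 44.4%, against 6.78% and 6.89%. The median log2 fold change of the 9 inhibitors was -0.33, although the most abundant of them lay higher. Frzb (ENSMUSG00000027004; mm10 chromosome 2, 80411970 to 80447625), a secreted Frizzled-related protein of early cartilage that binds WNTs, was the most abundant at 54.1 and 77.8 TPM in the controls and 78.6 and 122 TPM in the knockouts. The 39-somite control and the 40-somite knockout almost meet, and within each stage the knockout is higher. Wif1 (ENSMUSG00000020218; mm10 chromosome 10, 121033960 to 121100650), a secreted protein that binds WNT ligands directly, stood at 24.2 and 24.4 TPM in the controls and 34.0 and 38.7 TPM in the knockouts, with a wide gap between groups. Both rose with somite stage in the model (log2 fold changes 0.58 ± 0.25 and 0.56 ± 0.12, SE 0.07 and 0.08 with stage, 2 libraries per genotype; limma, BH-adjusted p = 0.0277 and 0.0393) and did not pass without it (0.391 and 0.108). Over 14 alternatives the adjusted p ran from 0.00108 to 0.902 for Frzb and 0.0393 to 0.391 for Wif1. Without the 39-somite knockout the log2 fold change of Frzb was 0.27, and without the 40-somite knockout 0.90 (limma, BH-adjusted p = 0.902 and 0.00108).

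Kremen1 (ENSMUSG00000020393; mm10 chromosome 11, 5191552 to 5261558), a surface receptor that with DKK proteins removes LRP6, stood at 20.1 and 18.2 TPM in the controls and 14.0 and 11.9 TPM in the knockouts. It fell with stage in the model (log2 fold change -0.53 ± 0.14, SE 0.09 with stage; limma, BH-adjusted p = 0.0474 with stage, 0.171 without, 0.0474 to 0.590 over 14 alternatives). Its partners Dkk1 and Dkk2 lay on the same side without passing. Dkk1 stood at 11.45 and 9.36 TPM against 8.62 and 7.44 TPM, and Dkk2 at 2.94 and 2.18 TPM against 1.44 and 1.37 TPM. The divergent family member Dkk3, not counted as a partner here, also lay lower without passing, at 3.19 and 3.18 TPM against 1.99 and 1.69 TPM. In all 3 Dkk genes the groups do not overlap (log2 fold changes -0.33 ± 0.16, -0.56 ± 0.18 and -0.56 ± 0.16; limma, BH-adjusted p = 0.435, 0.250 and 0.195). Sfrp1, another secreted WNT-binding protein, stood at 9.16 and 9.89 TPM against 5.15 and 7.29 TPM, again without overlap (-0.56 ± 0.18; 0.254). Its relative Sfrp2 overlapped at 19.1 and 24.7 TPM against 19.3 and 28.8 TPM, and Sfrp5 stayed under 0.05 TPM. Notum, an enzyme that removes the lipid of WNT proteins, stood at 22.3 and 16.9 TPM against 17.4 and 13.6 TPM. Summed over the 10 genes, inhibitor TPM was 167 and 187 TPM in the controls and 181 and 233 TPM in the knockouts, a sum in which Frzb is the largest term.

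None of the 6 intracellular inhibitors passed, although both Nkd genes lay lower. Nkd1 and Nkd2, Dishevelled-binding proteins that WNT signalling induces, stood at 19.9 and 28.4 TPM and 39.5 and 45.0 TPM in the controls. In the knockouts they stood at 14.5 and 14.3 TPM and 30.6 and 29.4 TPM, below both controls and near-equal between embryos. Axin2, the most widely used readout of beta-catenin activity, stood at 29.9 and 34.3 TPM in the controls and 37.1 and 34.4 TPM in the knockouts, where the 39-somite embryos of both genotypes hold almost the same level. Without and with stage these 3 did not pass (log2 fold changes -0.68 ± 0.18, -0.48 ± 0.12 and 0.15 ± 0.12; limma, BH-adjusted p = 0.175, 0.155 and 0.670 without stage and 0.0733, 0.0622 and 0.398 with it). The 95% interval of Axin2 was -0.14 to 0.45. Axin1 and Apc, constant parts of the beta-catenin destruction complex, had intervals of -0.47 to 0.17 and -0.30 to 0.29, at 26.4 and 16.6 mean TPM, and Dact1 stood at 7.28 and 9.44 TPM against 5.99 and 8.93 TPM.

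**Figure D4:**
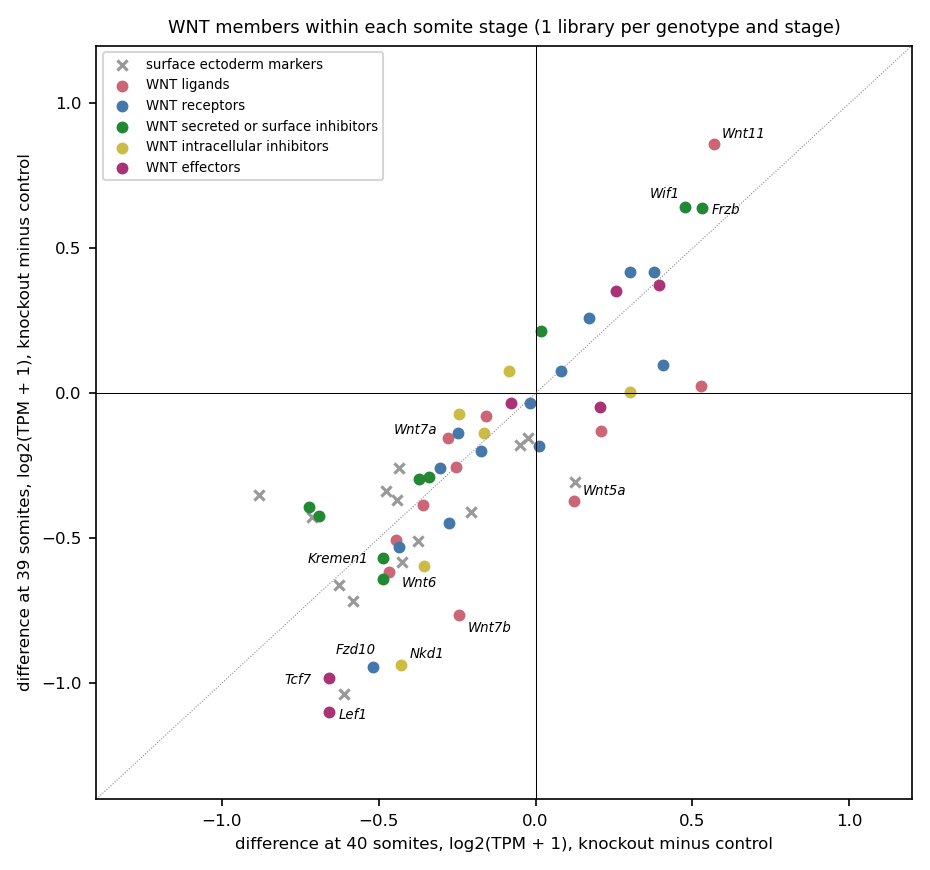
Knockout minus control difference of log2(TPM + 1) at 40 somites (horizontal) and 39 somites (vertical) for the 45 tested WNT genes and 14 surface ectoderm markers, each point resting on 1 library per genotype and stage. Lef1 and Tcf7 lie low and Wnt11, Wif1 and Frzb high on both axes, and Wnt5a and Wnt7b lie off the dotted line of equal differences.

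Within each somite stage, 40 of the 45 members had the same direction (88.9%, beside 69.2% of all tested genes). Lef1 differed by -0.66 at 40 and -1.10 at 39 somites, Tcf7 by -0.66 and -0.98, and Fzd10 by -0.52 and -0.94. Wnt11 differed by 0.57 and 0.86. The other members that passed with stage were Wif1 (0.48 and 0.64), Frzb (0.53 and 0.64), Wnt6 (-0.47 and -0.62) and Kremen1 (-0.49 and -0.57). In all of these genes the difference was larger in the 39-somite pair, a contrast between stages that was not tested.

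Other genes of the pathway were read from lists of 76 genes, of which 70 were tested. Without stage 2 rose and 4 fell, or 2.86% and 5.71%, against 0.812% and 0.492% of all tested genes. With stage in the model 5 rose and 5 fell, or 7.14% each, against 2.08% each. These counts include the 9 tested limb genes that WNT signals act on, described below. Leaving those out, 61 genes were tested. Of the 61, 1 rose and 1 fell without stage (1.64% each), and 3 rose and 1 fell with it (4.92% and 1.64%). The median log2 fold change of the 70 was -0.06. Sostdc1, which encodes a secreted inhibitor of BMP and WNT signalling, rose and stood at 9.47 and 6.497 TPM in control and 30.2 and 31.9 TPM in knockout buds (log2 fold change 1.85 ± 0.18; limma, BH-adjusted p = 0.0150). Shisa2, whose product holds Frizzled and FGF receptors back inside the cell, fell from 15.9 and 17.7 TPM to 7.74 and 8.09 TPM (-0.998 ± 0.13; 0.0316). Dact3, a Dishevelled antagonist, at 25.1 and 30.6 TPM against 34.0 and 48.0 TPM, and Cby1, a binding partner of beta-catenin, at 47.2 and 58.7 TPM against 62.4 and 79.4 TPM, rose with stage in the model only (limma, BH-adjusted p = 0.0474 and 0.0474). In ligand secretion 0 of 4 genes passed in limma with or without stage, and at an unadjusted p under 0.05 without stage 0 did. Wls, the carrier of WNTs to the cell surface, stood at 153 and 135 TPM against 127 and 95.6 TPM, without overlap (-0.38 ± 0.16; limma, BH-adjusted p = 0.381). In cytoplasmic transduction 0 of 16 and in planar cell polarity 0 of 17 passed in limma either way, with 1 and 2 at an unadjusted p under 0.05 without stage.

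Limb genes that WNT signals act on changed in both directions. Of 9 tested, 1 rose (T) and 3 fell (Fgf8, Msx1 and Msx2) without stage in limma, and with stage Lmx1b also rose and En1 also fell. As shares of the 9, 11.1% rose and 33.3% fell without stage, against 0.812% and 0.492% of all tested genes. With stage 22.2% rose and 44.4% fell, against 2.08% each. T stood at 2.69 and 3.06 TPM in the controls and 32.2 and 14.2 TPM in the knockouts. Log2 fold changes were 2.54 for T, -1.75 for Msx1 and -1.62 for Msx2. Ccnd1 (0.20), Myc (0.48) and Sp8 (-0.19) did not pass either way. Lmx1b, which WNT7A switches on in dorsal mesenchyme, stood at 25.6 and 31.6 TPM in the controls and 43.9 and 54.5 TPM in the knockouts (difference of 0.76 ± 0.16 on the log2 scale, SE 0.07 with stage; limma, BH-adjusted p = 0.0177 with stage and 0.105 without). En1, which holds Wnt7a down in ventral ectoderm, stood at 9.65 and 7.22 TPM against 3.54 and 2.46 TPM (0.0175 with stage and 0.0589 without), beside the Wnt7a values given above. Fgf8, the ridge signal maintained by WNT3, fell by 1.09 on the log2 scale (limma, BH-adjusted p = 0.0283), beside -0.25 for Wnt3, which did not pass. These targets also answer to other pathways, and the part of WNT signalling in their values was not tested.

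Of the members, 12 share exonic bases with an annotated gene on the other strand, Lef1, Wnt11, Wnt5a, Axin2 and Ctnnb1 among them. Whether the libraries kept strand is not given in the sources used here, so reads of such partners cannot be told apart. Ulk4, which overlaps Ctnnb1, and Gm8398, which overlaps Wnt11, are the partners found by symbol in the deposited table, at 12.3 to 15.5 TPM and at most 0.234 TPM.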

How the data were processed

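Deposited TPM values were used as the authors gave them, 1 column per library. Per the submitters' processing notes, Salmon 1.9.0 and the mm10 build were used. TPM keeps no read depth, so no count test was run and the precision behind a value is unknown. The table's 35727 identifiers gave symbols for 99.1%, and TPM of 38 repeated symbols was summed. The replicates are separate embryos. Genes with at least 1 TPM in at least 2 libraries were tested with limma 3.58.1 (R 4.3.3) on log2(TPM + 1), with a variance trend and Benjamini-Hochberg adjustment, knockout against control. Alternatives were other pseudocounts, filters, scalings, variance priors, somite stage as a block, and leaving out each library. The fit without stage was run on simulated data with known changes, and the fit with stage was not. Library values are given for members past an adjusted p of 0.05 with or without stage, those with an unadjusted p under 0.05, the 2 most abundant of each role and, where they complete a role, others. Of other pathway genes, those past the adjusted threshold were to be named up to 8, and all 10 are named here. Wls was added after its values were seen. Members and lists were chosen with earlier results of these data known.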

Additional observations from a re-analysis of the deposited data

Results flagged for a closer look

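For 5 members the knockout lay on opposite sides of the control at the 2 somite stages, as log2(TPM + 1) differences between 1 library of each genotype, and the difference between stages was not tested. Wnt5a differed by 0.12 at 40 somites and by -0.37 at 39 somites. Wnt10a differed by 0.21 and -0.13, and Tcf7l1 by 0.21 and -0.046. Ryk differed by 0.0123 and -0.18, and Apc by -0.0853 and 0.0756. None of these genes passed limma with or without stage.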

How the results depend on the processing

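Few members passed without somite stage as a replicate block, and depth is unknown in TPM. Deviations of same-stage libraries from their group means correlated at 0.25 across 12809 genes, and replicate numbers themselves pair nothing. The mitochondrial share of TPM also went with stage. It was 9.91% in the control and 10.1% in the knockout at 40 somites, and 8.05% and 7.58% at 39 somites. Somite stage and library composition therefore cannot be told apart in the block. With the block 8 members passed in place of 1, and 533 genes in all (266 higher, 267 lower) in place of 167 (104 higher, 63 lower). Of the members, 0 passed at pseudocounts of 0.1 or 5, with no filter on low values or with no variance trend, 2 with TPM of at least 5, and 4 with a robust variance, which called 275 genes. The unfiltered limma fit called 0 genes, with 2338 under 0.05 before adjustment. Leaving out 1 library gave 0 to 7 members and 50 to 646 genes: without the 40-somite control 0 and 59, without the 39-somite control 0 and 50, without the 40-somite knockout 7 and 646, and without the 39-somite knockout 2 and 501. The lone library of a genotype is then assumed to vary like the other pair.

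The log2 ratio of summed TPM, knockout over control, ran over the left-out libraries from -0.34 to -0.0209 for ligands (-0.17 with all), -0.16 to -0.00 for receptors, 0.03 to 0.40 for secreted and surface inhibitors, -0.33 to -0.11 for intracellular inhibitors and -0.18 to -0.00 for effectors. Of 45 members, 32 kept their sign over the alternatives run, 14 each, or 13 for the 8 left out at TPM of at least 5. In the other 13 the log2 fold change over left-out libraries ran from -0.46 to 0.0227 for Wnt7a, -1.02 to 0.0076 for Wnt7b, -0.44 to 0.21 for Wnt9b, -0.0887 to 0.17 for Wnt10a, -0.0104 to 0.56 for Wnt10b, -0.0554 to 0.56 for Fzd4, -0.0769 to 0.0261 for Lrp6, -0.19 to 0.0214 for Ryk, -0.16 to 0.39 for Sfrp2, -0.41 to 0.10 for Dact1, -0.0522 to 0.0425 for Apc, -0.15 to 0.0437 for Ctnnb1 and -0.0677 to 0.23 for Tcf7l1. Under quantile normalization Ctnnb1 was at 0.0013. Apart from the fewer samples, the cause of these shifts was not tested.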
